A study of Mus musculus with 10 samples.

Results

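The baseline transcriptome of cultured mouse hepatocytes was described from the libraries titled Vehicle1 and Vehicle2, called Vehicle library 1 and Vehicle library 2 here, which were chosen by their labels and are 2 of the 10 libraries of the study. The study cultured primary hepatocytes, that is, parenchymal liver cells taken from the animal and kept on plates, with palmitate or linoleate for 24 h, with or without Neurotropin (NTP), an extract from inflamed rabbit skin inoculated with vaccinia virus. By its title, the Vehicle group received no palmitate, no linoleate and no NTP. The other 8 libraries were not used here, and no treatment was compared.

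The hepatocytes came from wild-type C57BL/6 mice. They were obtained by in situ collagenase perfusion and seeded on plates coated with collagen I. The labels give DMEM with 10% FBS as the medium, and the methods describe a change to DMEM without serum overnight before treatment. The methods name DMSO as the vehicle control for an inhibitor used in other experiments, and neither they nor the labels say what the vehicle of these libraries was, how many mice gave cells or whether cells were pooled. Nothing says that the 2 libraries came from separate cultures or animals, so the spread between them may be technical. Library 1 held 18795990 expected counts over 15742 listed genes and library 2 held 26900384 over 15987, a depth ratio of 1.43. In all, 16540 genes were listed in at least 1 of them. Genes absent from a table were taken as listed at 0. Levels are deposited FPKM, which scale the reads of a gene by its length and by the depth of the library, and are always given for library 1 and then library 2. The numbers carried by the deposited tables differ from those of the sample titles, and the titles were followed. A gene was counted as expressed at a mean FPKM of at least 1. No uncultured liver was among the 10 libraries, so whether a liver function was kept or lost in culture could not be compared, and levels alone are described.

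Hepatocytes make most proteins of the blood plasma, among them albumin, carriers, clotting factors, complement and apolipoproteins. They also make glucose, urea and bile acids and modify drugs through cytochrome P450 enzymes. In the liver lobule these tasks are zoned, with urea and glucose production strong near the portal vein and drug metabolism and glutamine synthesis strong near the central vein. Plated primary hepatocytes are known to flatten and to lose part of this programme with time in culture.

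The labelled cell type was checked against its markers, and all 4 defining ones were present at high or moderate levels. Alb, which encodes serum albumin, was at 2594 and 2529 FPKM and ranked 14 of all genes. Apoa1, the main apolipoprotein of HDL, was at 547 and 440 FPKM. Apob, the structural protein of VLDL, was at 300 and 324 FPKM. These values put Alb, Apoa1 and Apob in the upper range of the table, where 730 genes had a mean of at least 100 FPKM. Ttr, the thyroxine and retinol carrier transthyretin, was lower, at 59.4 and 48.1 FPKM, and ranked 1421. Within each library Alb stood 43.6 and 52.6 times above Ttr.

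Of the 12 hepatocyte markers, 12 were expressed, 10 reached 10 FPKM and 7 reached 100 FPKM, with a median of 254. For comparison, the median of all 21900 protein-coding genes was 0.823, 49.0% of them reached 1 FPKM, 27.6% reached 10 and 3.28% reached 100. Hnf4a, the nuclear receptor that maintains hepatocyte identity, was at 67.1 and 66.6 FPKM. The markers at the bottom of the list were enzymes and a receptor of the mature cell. Cps1, the entry enzyme of the urea cycle, was at 3.93 and 3.17 FPKM. Tat, tyrosine aminotransferase, was at 7.67 and 5.78, and Asgr1, a subunit of the asialoglycoprotein receptor, was at 11.8 and 8.94. In bulk libraries such as these, fewer cells of a type and less RNA per cell cannot be told apart.

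Transcripts of other liver cells were low but not absent. The summed FPKM of the 12 Kupffer cell and macrophage markers was 211 in each library, of which Cd68, a lysosomal protein not restricted to macrophages, gave 203 and 203. Most of the other markers were under 1 FPKM, while Cd5l was at 2.84 and 2.70 and C1qc at 1.27 and 1.28. Clec4f, a lectin of mouse Kupffer cells, was at 0.22 and 0.15 FPKM, and Timd4, a receptor for dying cells, was at 0.00 and 0.02. Adgre1, which encodes F4/80, was at 0.34 and 0.56. In all, 9 of the 12 were under 1 FPKM and the median was 0.508.

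The sinusoidal endothelial markers were the most widely detected of the non-parenchymal lists, with 9 of 12 expressed, a median of 2.74 and summed levels of 51.9 and 52.6 FPKM. Cdh5, the cadherin of endothelial junctions, was at 16.9 and 17.1 FPKM, and Pecam1, another junction protein, was at 9.56 and 9.66. Stab2, the scavenger receptor that is characteristic of sinusoidal cells, was at 4.12 and 3.61. Stellate cell and fibroblast markers had 6 of 12 expressed, a median of 1.15 and sums of 34.1 and 34.5. Dcn, the matrix proteoglycan decorin, led them at 12.5 and 13.1 FPKM, and Lrat, which stores retinol in stellate cells, was at 0.59 and 0.60.

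Among 12 cholangiocyte markers, those of bile duct epithelium, 5 were expressed and the median was 0.385, or 2.31 over the members listed in both libraries. Their sums of 651 and 616 FPKM were mostly Spp1, the secreted phosphoprotein osteopontin, at 603 and 572. Sox9, a transcription factor of ducts and progenitors, was at 12.1 and 10.3. The duct keratin Krt19 was at 0.64 and 0.67 FPKM, the keratin Krt7 at 0.13 and 0.00 and the surface protein Epcam at 0.10 and 0.02. The chloride channel gene Cftr was not listed.

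Blood cell markers were mostly not listed or under 1 FPKM. Of 12 lymphocyte markers, 5 were not listed, and Cd8b1, the beta chain of the CD8 coreceptor, alone was expressed, at 4.47 and 4.34 FPKM. Its partner chain Cd8a was at 0.15 and 0.18, so that Cd8b1 stood 29.8 and 24.1 times higher. The T cell receptor subunit Cd3e was at 0.00 and 0.03. Of 10 neutrophil markers 7 were not listed, among them S100a8 and S100a9, which encode the cytosolic calprotectin subunits. Of 6 erythroid markers 4 were not listed, and the adult beta globin genes Hbb-bs and Hbb-bt were among them. The part of these other cells in the levels described next was not tested.

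**Figure D1:**
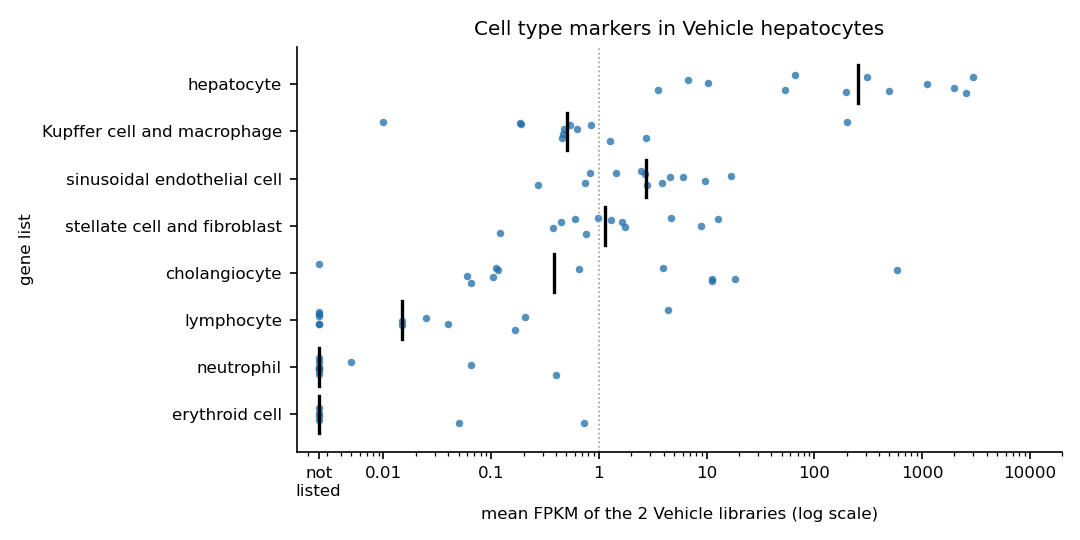
Mean FPKM of the 2 Vehicle libraries (log scale) for each marker of 8 cell types. Each point is a gene, the black bar is the median of the list with genes not listed taken as 0, and the dotted line marks 1 FPKM. Hepatocyte markers have a median of 254 FPKM, and the medians of the other lists run from 0 to 2.74.

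A few highly expressed genes took up much of the transcriptome. The 10 highest genes held 9.87% of all FPKM, the 50 highest 24.6% and the 100 highest 35.0%. In library 1, 255 genes held 50% of all FPKM, and in library 2, 268 did. The total number of expressed genes was 11197, of which 95.9% were protein coding, and 80 genes reached 1000 FPKM. The 100 highest genes were short, with a median length of 886.5 bases against 2685 for the expressed genes, and by expected counts, which are not divided by length, the 100 highest held 24.0%.

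The most abundant transcript was not Alb but Clu. Clu (chr14:65968483-65981548, GRCm38) encodes clusterin, a secreted chaperone, and was at 10643 and 10340 FPKM, 4.10 and 4.09 times the level of Alb in the same library. Gc, which encodes the vitamin D binding protein of plasma, followed at 8591 and 8635 FPKM, 3.31 and 3.41 times Alb. Both genes also led by expected count. Clu had 361155 and 502008 counts, Gc had 292168 and 420157, and Alb had 99702 and 139045, which put Alb at 7 by count. The order of the 5 highest genes was the same in both libraries, and their values did not overlap between neighbours.

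Behind Clu and Gc stood Eef1a1, a translation elongation factor, at 6233 and 6027 FPKM. B2m, the light chain of MHC class I molecules, was at 4903 and 4944. Hpx, the heme carrier hemopexin, was at 4432 and 4501. From there the levels lay close together. Of the 19 neighbouring pairs among the 20 highest genes, 10 had values that overlapped between the libraries, so that their order is not resolved.

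Other plasma proteins of the top 20 were Trf, the iron carrier transferrin, at 3037 and 2971 FPKM, Selenop, which carries selenium, at 2986 and 2889, and Apoe, a ligand of lipoprotein receptors, at 2393 and 2126. Ftl1, the light chain of ferritin, was at 2909 and 2771 FPKM, and Gapdh, an enzyme of glycolysis, was at 2578 and 2446. Gstp1, a glutathione transferase, was at 3440 and 3403, and Tpt1, a translationally controlled growth protein, was at 3098 and 3096. In all, 6 of the 20 highest genes belonged to the secreted plasma protein lists, which do not hold Clu or the Mup genes. Trf shared 63.8% of its 31-base stretches with other transcripts of the annotation, Eef1a1 49.8%, Ftl1 57.7%, Gstp1 38.5% and Gapdh 27.2%. Clu, Gc, B2m, Hpx, Alb and Apoe shared 0%. For Eef1a1, Ftl1, Gstp1 and Gapdh, reads could be split between copies, and their levels are uncertain. The expected counts of Trf were whole numbers, 133541 and 186884, so that no split of its reads shows in them.

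Krt18 and Sprr1a were also among the 20 highest. Krt18, the keratin that forms the intermediate filaments of hepatocytes with Krt8, was at 2276 and 2273 FPKM. Sprr1a, a small proline-rich protein known from the cornified envelope of skin, was at 2463 and 2458 FPKM. Of the 14 small proline-rich genes annotated, 4 were listed and Sprr1a alone was expressed. Its transcript shared no 31-base stretch with another gene.

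**Figure D2:**
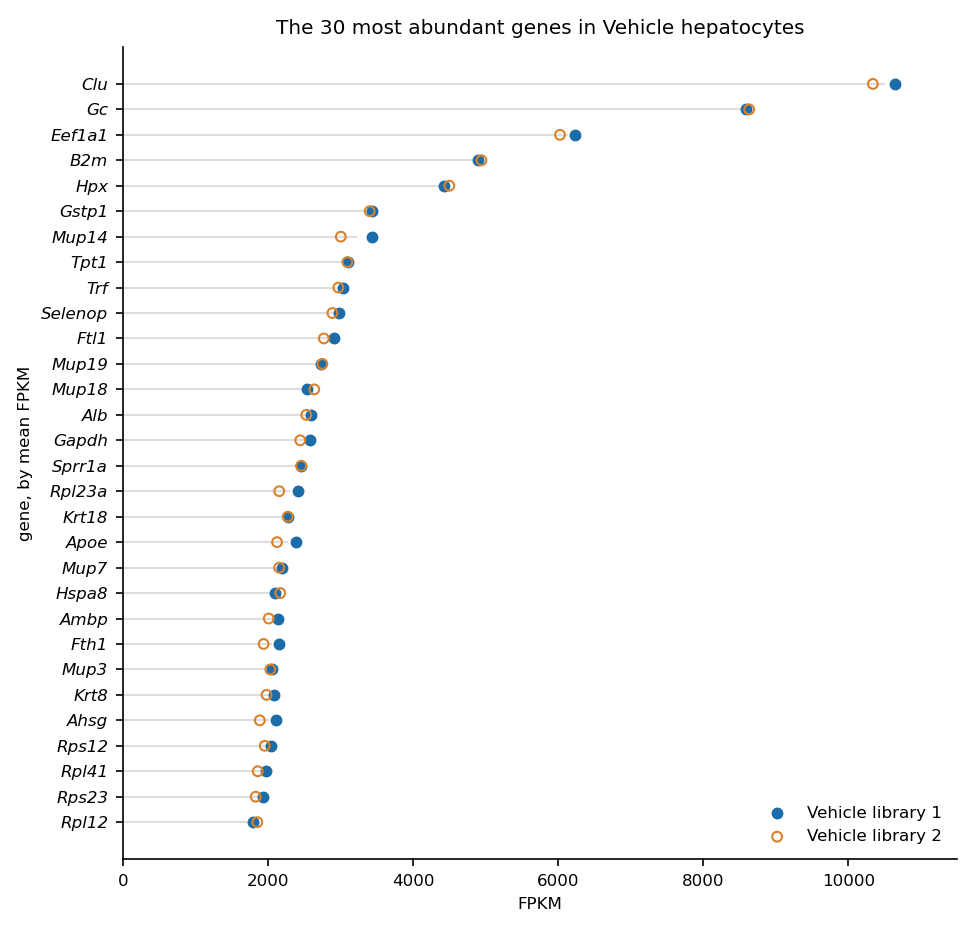
FPKM of the 30 genes with the highest mean, filled points for Vehicle library 1 and open points for Vehicle library 2, with a linear axis from 0. Clu, Gc and Eef1a1 stand above 5000 FPKM, and from Gstp1 downwards many neighbouring genes overlap between the libraries.

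The families behind the top of the table were described by their shares, and they were chosen after their values were seen. Cytosolic ribosomal protein genes made up 50 of the 100 highest genes and 15.9% and 15.5% of all FPKM. Of 88 such genes 86 were listed and 33 reached 1000 FPKM. Many have processed copies, and Rpl23a, the highest at 2421 and 2156 FPKM, shared 52.3% of its 31-base stretches. Major urinary protein genes, which encode lipocalins that mice excrete in urine, made up 9 of the 100 highest and 4.15% and 3.94% of all FPKM. Mup14 was at 3434 and 3005 FPKM, Mup19 at 2728 and 2751, Mup18 at 2535 and 2639 and Mup7 at 2189 and 2155. These near-identical copies shared 89.2%, 100%, 93.1% and 90.0% of their 31-base stretches, so that the level of a single Mup gene is uncertain and the family sum depends less on how reads were split. Of 49 keratin genes 13 were listed, 6 were expressed, and Krt18 and Krt8 alone reached 10 FPKM.

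Levels differed strongly between neighbouring genes of the albumin family on chromosome 5 (GRCm38). Gc lies at chr5:89417511-89457898 and Alb at chr5:90460870-90476602. Afp, the fetal counterpart of albumin, lies at chr5:90490714-90508907 and was at 2.70 and 2.53 FPKM, so that Alb stood 961 and 999 times higher. Afm, the vitamin E binding protein afamin, lies at chr5:90518949-90553544 and was at 3.82 and 3.63 FPKM. The fetal gene and Afm were thus at single-digit levels beside highly expressed neighbours.

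The sequence just before the annotated start is shown for Alb and Gc, as the highly expressed members of that family, for Apob as another secreted protein and for Krt18 as a highly expressed gene that is not secreted. The 120 bases are read 5′ to 3′ on the gene's own strand from the RefSeq annotation of GRCm38.p6. Capitals mark TATAAA, letters that the TATA-binding protein recognises. Alb lies at chr5:90460750-90460869 on the plus strand, Gc at chr5:89457899-89458018 on the minus strand, Apob at chr12:7977557-7977676 on the plus strand and Krt18 at chr15:102028096-102028215 on the plus strand.
Alb: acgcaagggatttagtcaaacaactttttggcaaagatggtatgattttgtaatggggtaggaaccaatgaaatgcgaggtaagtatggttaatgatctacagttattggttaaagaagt
Gc: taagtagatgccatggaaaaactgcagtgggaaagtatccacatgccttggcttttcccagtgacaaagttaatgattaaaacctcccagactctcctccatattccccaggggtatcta
Apob: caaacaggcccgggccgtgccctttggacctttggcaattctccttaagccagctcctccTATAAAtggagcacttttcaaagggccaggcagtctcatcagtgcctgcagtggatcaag
Krt18: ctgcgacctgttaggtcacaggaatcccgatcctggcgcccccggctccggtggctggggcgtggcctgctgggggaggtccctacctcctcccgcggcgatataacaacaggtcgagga

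Apob held TATAAA in this stretch, and Alb, Gc and Krt18 did not. The same stretch of Hpx, not printed here, did not hold it either. Only these exact letters were looked for, so that near matches were not marked. The motif was chosen after windows of these genes had been read. TATAAA, or TTTATA on the other strand, was then looked for in windows of 250 bases before to 50 bases after the annotated start. It was in 15 of 75 windows of the secreted plasma protein lists, 20%, against 13.3% of 17492 windows of protein-coding genes. Among genes expressed here the share was 7.09%, and among genes not listed it was 24.7%. The matches describe letters in a window and not a bound site.

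The liver functions fell into levels that spanned several orders of magnitude. Major urinary proteins, plasma carriers and the cytoskeletal list had the 3 highest medians. The first of these lists holds 8 genes, and over all 20 listed Mup genes the median was 662. Bile acid genes, the glucose-handling list, periportal genes and cytochrome P450s were among the lists with medians under 5 FPKM. The secreted plasma protein lists had 96 members listed in all, 6 of them among the 20 highest genes and 13 among the 100 highest, and together held 8.50% and 8.33% of all FPKM.

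**Figure D3:**
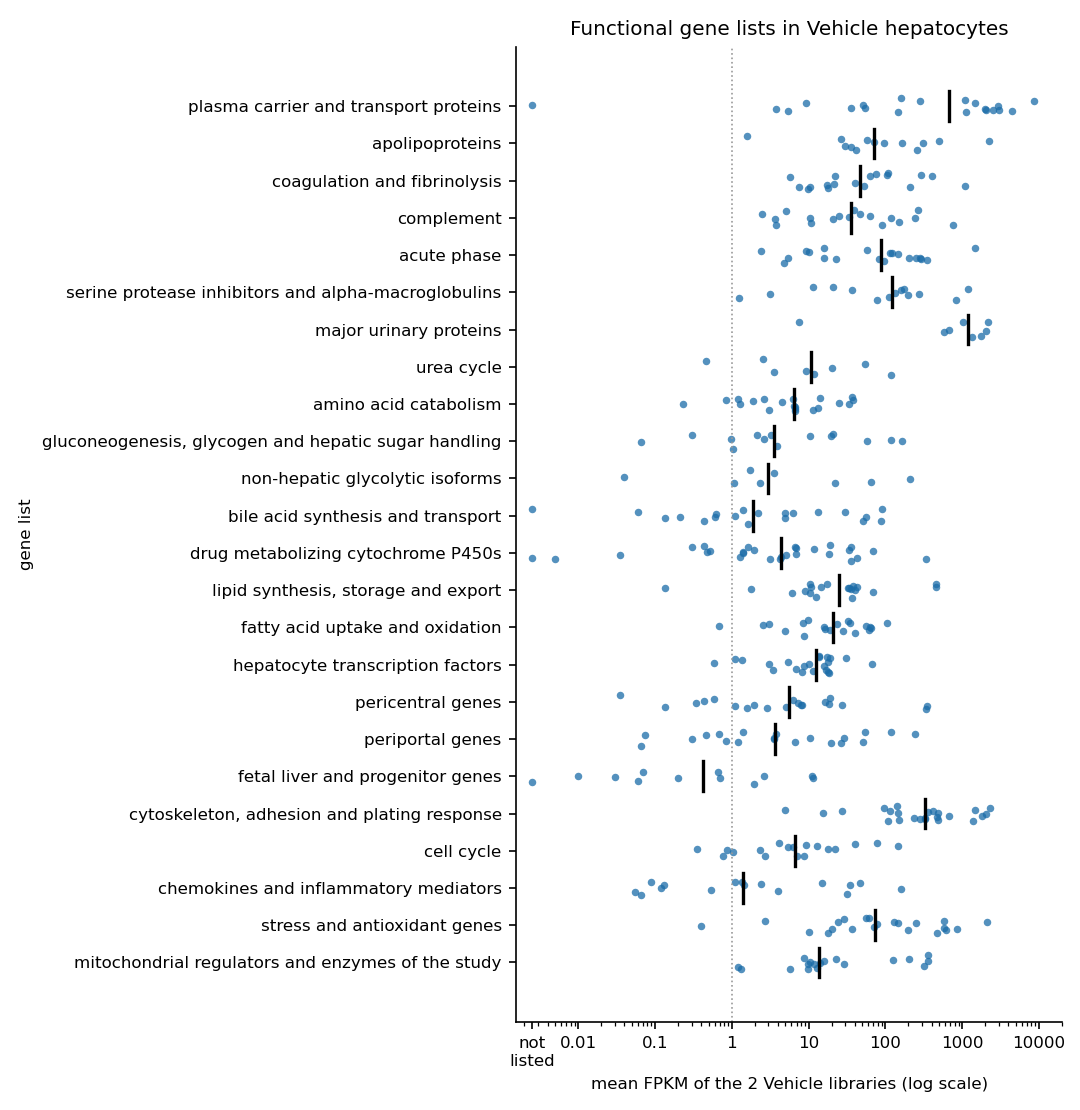
Mean FPKM of the 2 Vehicle libraries (log scale) for each member of 24 functional gene lists. Each point is a gene, the black bar is the median of the list and the dotted line marks 1 FPKM. Medians run from 0.428 FPKM for fetal liver and progenitor genes to 1186 FPKM for the list of 8 major urinary proteins.

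Of the 20 plasma carriers, 19 were expressed and 13 reached 100 FPKM, with a median of 683, or 1084 over the members listed in both libraries. Ambp, the precursor of alpha-1-microglobulin and bikunin, was at 2138 and 2011 FPKM. Ahsg, the glycoprotein fetuin-A, was at 2110 and 1888. Rbp4, the retinol carrier of plasma, was at 1113 and 1109. The list had members in the low range as well. Serpina6, the corticosteroid carrier, was at 6.26 and 4.48 FPKM, Hrg, histidine-rich glycoprotein, was at 9.89 and 8.92, and A1bg was not listed. Ttr, whose protein forms a complex with the Rbp4 product in plasma, stood far below Rbp4.

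Of the 13 apolipoproteins, 13 were expressed and 5 reached 100 FPKM, with a median of 71.9. Apoe stood 4.37 and 4.83 times above Apoa1. Genes of shared clusters differed in level. On chromosome 9, Apoa1 was at 547 and 440 FPKM, its neighbours Apoc3, an inhibitor of lipoprotein lipase, at 74.4 and 69.5 and Apoa4 at 91.4 and 100.2, and Apoa5, an activator of lipoprotein lipase, at 1.78 and 1.41. On chromosome 7, Apoc1, next to Apoe, was at 280 and 240 FPKM and Apoc2, the cofactor of lipoprotein lipase, at 40.3 and 41.6. In both clusters the leading gene stood apart from its neighbours.

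The 18 coagulation and fibrinolysis genes were all expressed, with a median of 46.3, and 6 reached 100 FPKM. The chains of fibrinogen, which assemble in equal numbers into the clotting protein, were at unequal transcript levels. Fgb (chr3:83042246-83049863) was at 1135 and 1074 FPKM, Fga (chr3:83026153-83033627) at 111 and 102 and Fgg (chr3:83007724-83015056) at 82.8 and 68.7. Fgb thus stood 10.3 and 10.5 times above Fga and 13.7 and 15.6 times above Fgg. None of the chains shared 31-base stretches with other transcripts. Cpb2, the carboxypeptidase that slows fibrinolysis, was at 403 and 399 FPKM and Kng1, a kininogen, was at 297 and 288. F7, which starts the extrinsic pathway, was the lowest at 5.93 and 5.48.

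All 18 complement genes were expressed as well, with a median of 35.9 and 5 at 100 FPKM or more. C3, the central component, was at 755 and 753 FPKM and Cfb, the protease precursor of the alternative pathway, was at 274 and 263. Mbl2, the lectin that opens the lectin pathway, was at 254 and 228. Terminal components were uneven. C5, the component cleaved to start the membrane attack complex, was at 47.4 and 47.3 FPKM, C6 at 11.5 and 9.10 and C9, which forms the pore, at 3.59 and 4.03. Of the C8 subunit genes, C8b was at 28.0 and 22.7, C8a at 3.86 and 3.57 and C8g at 3.03 and 1.93.

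The 20 acute phase genes, most of which the liver raises in inflammation, were all expressed, with a median of 89.0, and 9 reached 100 FPKM. Hp, the hemoglobin carrier haptoglobin, was at 1585 and 1393 FPKM, and Saa1, serum amyloid A, was at 387 and 303. Lcn2, a lipocalin that binds bacterial siderophores, was at 152 and 138. Others of the list were lower. Crp was at 15.7 and 16.0 FPKM, Hamp, which encodes the iron hormone hepcidin, at 11.04 and 9.18, and Saa3 at 5.99 and 3.48. Saa1 shared 46.8% of its 31-base stretches with other transcripts. The serine protease inhibitors and alpha-macroglobulins had a median of 123, led by Serpina1b, an alpha-1-antitrypsin copy, at 1246 and 1150 FPKM. The Serpina1 copies shared between 44.7% and 82.2% of their 31-base stretches.

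Levels of the metabolic lists were lower and more uneven. Of the 8 urea cycle genes, 7 were expressed and 1 reached 100 FPKM. Ass1 and Asl, which make argininosuccinate and cleave it, were at 122 and 112 and at 54.1 and 54.3 FPKM. Otc, the mitochondrial step after Cps1, was at 2.46 and 2.72 FPKM. Arg1, the arginase that releases urea, was at 0.58 and 0.35. The cytosolic steps shared with arginine synthesis were thus above the others. Ass1 stood at 31.1 and 35.5 times Cps1 and at 211 and 321 times Arg1. It shared 43.1% of its 31-base stretches with other transcripts. The expected counts of Ass1 were 3733 and 4913.66, so that a fractional split of its reads shows only in library 2. How far the shared stretches affect its level and these ratios was not tested.

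Of the 20 amino acid catabolism genes, 18 were expressed, 7 reached 10 FPKM and none (0) reached 100, with a median of 6.53. Got1, the cytosolic aspartate aminotransferase, was at 40.3 and 36.1 FPKM, and Fah, the last enzyme of tyrosine breakdown, at 37.6 and 35.1. Tdo2, which opens the tryptophan ring, was at 34.3 and 32.6. Hal, the histidine ammonia-lyase, was at 1.21 and 0.50, and Haao, of the kynurenine pathway, at 0.26 and 0.21.

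In sugar handling, Pck1 and G6pc, enzymes of glucose release, had means under 1 FPKM. Pck1, the cytosolic PEP carboxykinase of gluconeogenesis, was at 0.33 and 0.28 FPKM. G6pc, glucose-6-phosphatase, was at 0.05 and 0.08. Other steps of gluconeogenesis were higher, with Pcx, pyruvate carboxylase, at 19.71 and 19.02 and Fbp1, fructose bisphosphatase, at 10.2 and 10.9. Members of sugar breakdown and glycogen use stood above them. Pklr, the liver pyruvate kinase, was at 116 and 121 FPKM and Pygl, the liver glycogen phosphorylase, at 59.8 and 56.0. In all, 11 of the 14 genes were expressed and the median was 3.57.

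Isoforms that are not typical of hepatocytes were detected beside them. Aldoa, the muscle aldolase, was at 209 and 207 FPKM. Slc2a1, the widespread glucose transporter GLUT1, was at 22.3 and 22.6 FPKM, 5.78 and 5.79 times the hepatic transporter gene Slc2a2. Hk2, a hexokinase of muscle and growing cells, was at 2.34 and 2.33. For pyruvate kinase the hepatic gene was the higher, with Pkm at 62.2 and 66.7 FPKM and Pklr at 1.86 and 1.81 times that level. The Pkm value covers both its splice forms.

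Of the 20 bile acid genes, 13 were expressed, 6 reached 10 FPKM and the median was 1.91. Cyp7a1, the rate-limiting enzyme of bile acid synthesis, was not listed in either library. Cyp8b1, the sterol hydroxylase that makes cholic acid, was at 0.55 and 0.31 FPKM, while Cyp27a1, of the alternative pathway, was at 56.9 and 53.7. Levels of transporters also lay far apart. Abcb11, the bile salt export pump, was at 0.55 and 0.65 FPKM and Slc10a1, which takes bile salts up from blood, at 2.23 and 2.13. Abcc2, the export pump for conjugates, was at 91.2 and 91.5, Abcc3 of the basolateral side at 85.2 and 88.2, and Abcb4, the phospholipid floppase, at 52.5 and 50.1. Abcc2 stood 166 and 141 times above Abcb11.

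Cytochrome P450s were low as a family. All 76 listed Cyp genes together held 0.180% and 0.181% of all FPKM, and 1 of them reached 100 FPKM. That gene was Cyp2a5, the coumarin hydroxylase, at 327 and 354 FPKM, with 54.6% of its 31-base stretches shared with other transcripts. Of the 28 drug metabolism genes, 21 were expressed, with a median of 4.36. Cyp3a11, a main drug hydroxylase of mouse liver, was at 42.6 and 29.8 FPKM. Cyp2e1, the ethanol-inducible enzyme, was at 18.9 and 18.0, and Cyp1a2 at 20.2 and 17.4. Por, the reductase that passes electrons to all of them, was at 69.7 and 69.6. Cyp3a41a was not listed.

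Lipid genes were present throughout, which is the background to the fatty acid treatments of the study. Of the 20 genes of lipid synthesis, storage and export, 19 were expressed and 16 reached 10 FPKM, with a median of 25.1. Plin2, the coat protein of lipid droplets, was at 455 and 466 FPKM, and Scd1, the stearoyl-CoA desaturase, at 444 and 459. Mttp, which loads lipid onto Apob, was at 39.9 and 40.2. Fasn, fatty acid synthase, was at 10.5 and 10.3 FPKM, and Pnpla3, a lipase of droplets, was at 0.12 and 0.15.

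Of the 20 genes of fatty acid uptake and oxidation, 19 were expressed and 13 reached 10 FPKM, with a median of 21.1. Acadm, the medium-chain acyl-CoA dehydrogenase, was at 109 and 98.9 FPKM. Cpt1a, the carnitine transferase that controls entry into mitochondria, was at 34.6 and 34.0. Cd36, a fatty acid receptor, was at 27.4 and 28.7. The nuclear receptor Ppara, which drives this programme in liver, was at 3.05 and 2.98 FPKM. Fabp1, the liver fatty acid binding protein, was at 21.7 and 11.1 FPKM and its libraries lay 1.94-fold apart.

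Mitochondrial regulators and enzymes, several of which the study itself examined, were all expressed, 18 of 18, with a median of 13.6. Cox7c and Cox8a, subunits of cytochrome c oxidase, were at 378 and 348 and at 208 and 197 FPKM. The coactivators of mitochondrial biogenesis Ppargc1a and Ppargc1b were the lowest, at 1.39 and 1.22 and at 1.27 and 1.17. Prkaa1 and Prkaa2, the catalytic subunits of AMPK, were at 15.0 and 13.5 and at 12.9 and 13.1 FPKM. Of the 37 genes of the mitochondrial genome, 0 were listed, so that subunits encoded there could not be described.

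The transcription factors of hepatocytes were expressed in 21 of 22 cases, with a median of 12.5. After Hnf4a came Cebpa, a factor of metabolic genes, at 29.4 and 31.9 FPKM, and Nr1h4, the bile acid receptor FXR, at 19.5 and 18.5. Foxa2, a factor that opens liver chromatin, was at 16.7 and 15.4. Nr1i3, the drug-sensing receptor CAR, was at 0.56 and 0.60 FPKM, and Nr0b2, the repressor SHP, at 1.43 and 1.30. Nr1i3 was the only member under 1 FPKM.

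Zonal genes of either end of the lobule were found over the whole range of levels. Of 20 pericentral genes, 15 were expressed and the median was 5.65, and of 20 periportal genes, 14 were expressed and the median was 3.69. Pericentral genes that respond to Wnt signals differed. Glul, glutamine synthetase, was at 27.9 and 27.5 FPKM, whereas Axin2, a feedback gene of the pathway, was at 0.12 and 0.15 and Lgr5, a receptor of Wnt-responsive cells, at 0.02 and 0.05. Aldh1a1, a retinal dehydrogenase, was the highest of the list at 353 and 345.

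On the periportal side, Hsd17b13, a protein of lipid droplets, was at 262 and 227 FPKM, and Cdh1, E-cadherin, was at 50.5 and 51.4. Cyp2f2, a P450 used as a periportal marker, was at 1.62 and 1.21, and Hsd17b6, a steroid dehydrogenase, was at 0.08 and 0.07. Neither list as a whole was absent, and within both lists the highest and the lowest member were more than 1000-fold apart. Cyp2a5 of the pericentral list stood 17.3 and 19.7 times above Cyp2e1 of the same list. Whether cells of a zone were gained or lost in isolation cannot be read from bulk RNA.

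**Figure D4:**
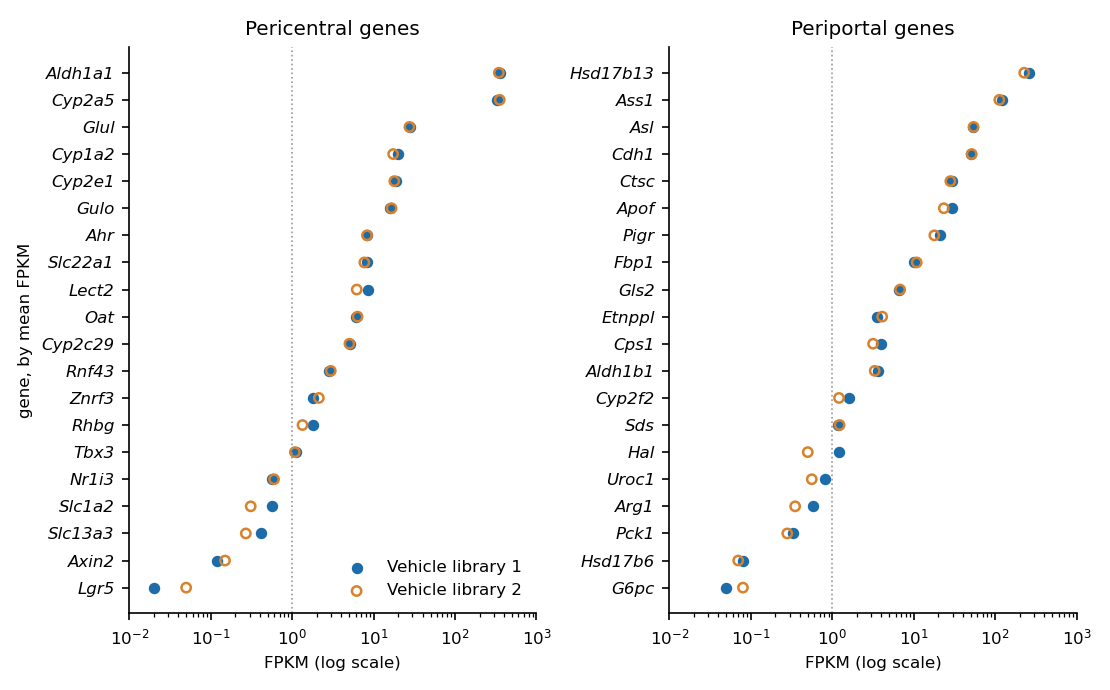
FPKM (log scale) of 20 pericentral genes on the left and 20 periportal genes on the right, ordered by mean, with filled points for Vehicle library 1 and open points for Vehicle library 2. Both lists run from over 200 FPKM (Aldh1a1 and Hsd17b13) to under 0.1 FPKM (Lgr5 and G6pc), and the libraries lie close together above 10 FPKM.

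Fetal liver and progenitor genes were low, with 4 of 12 expressed and a median of 0.428, or 0.695 over the members listed in both libraries. Cdh17, liver-intestine cadherin, was the highest at 11.1 and 11.7 FPKM. Dlk1, a surface protein of hepatoblasts, was at 0.14 and 0.00 and H19, an imprinted fetal transcript, was not listed.

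The list of cytoskeleton, adhesion and plating response was high in contrast, with all 24 members expressed, 20 at 100 FPKM or more and a median of 331. Krt8 was at 2081 and 1981 FPKM, so that Krt18 stood 1.09 and 1.15 times above its partner. S100a11, a calcium binding protein, was at 1789 and 1797, Tmsb10, which binds actin monomers, at 1420 and 1520 and Actb, cytoplasmic beta-actin, at 1413 and 1398. S100a11 shared 48.9% of its 31-base stretches with other transcripts, Krt8 32.3%, Tmsb10 32.0%, Actb 23.5% and Krt18 11.4%. Vim, the intermediate filament protein of mesenchymal cells, was at 458 and 495 FPKM. Cyr61 and Ctgf, secreted matrix proteins that respond to YAP, were at 286 and 285 and at 146 and 149. Anxa1 was the lowest at 4.19 and 5.72. Vim was above Dcn and Cdh5, the highest members of the stellate cell and endothelial lists. Which cells gave the Vim transcripts was not tested.

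Cell cycle genes covered a wide range. Cdkn1a, the inhibitor p21, was at 145 and 149 FPKM, and the transcription factor Myc at 78.5 and 79.3. Pcna, the clamp of DNA replication, was at 41.1 and 40.4. The genes of mitosis were at the bottom of the list. Mki67, a proliferation marker, was at 0.93 and 0.82 FPKM and Ccnb1, the mitotic cyclin B1, at 0.37 and 0.34. In all, 15 of 18 were expressed and the median was 6.71.

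Among 16 chemokine and inflammatory genes, 10 were expressed, with a median of 1.40. Ccl2, a monocyte chemokine, was at 162 and 158 FPKM, Cxcl1, a neutrophil chemokine, at 46.3 and 47.6 and Icam1, an adhesion molecule, at 34.3 and 35.2. Cytokines known mostly from macrophages were low, with Tnf at 0.53 and 0.53, Il1b at 0.12 and 0.06 and Il6 at 0.10 and 0.03. Of the 16 genes, 1 reached 100 FPKM and 6 were under 1. Macrophage markers other than Cd68 were under 3 FPKM, and which cells gave the chemokine transcripts was not tested.

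Stress and antioxidant genes had 21 of 22 members expressed, 10 at 100 FPKM or more and a median of 74.4. Hspa8, the constitutive cytosolic chaperone, was at 2103 and 2170 FPKM and shared 43.55% of its 31-base stretches with other transcripts. Gpx1, a glutathione peroxidase, was at 864 and 844, and Cat, catalase, at 619 and 621. The inducible heat shock genes were low, with Hspa1a at 0.25 and 0.54 FPKM and Hspa1b at 2.85 and 2.62. Hspa1a shared 65.4% and Hspa1b 68.0% of their 31-base stretches. Of the response to unfolded protein, Hspa5 was at 593 and 558 and Atf4 at 131 and 132. Ddit3, which encodes CHOP, was at 36.7 and 38.1.

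The 2 libraries agreed closely. Of 11197 genes with a mean of at least 1 FPKM, the median ratio of library 2 to library 1 was 1.01, with quartiles at 0.949 and 1.06, and 71.8% of genes lay within 1.1-fold. Across 11184 of these genes, those listed in both libraries, the Pearson correlation of log2 FPKM was 0.995 and the Spearman correlation 0.996, as a description over genes, which are not independent replicates. The highest 20 genes shared 19 members between the libraries and the highest 100 shared 98.

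Of those 11197 genes, 79 were 1.5-fold or more higher in library 2, 0.706%, and 126 were 1.5-fold or more lower, 1.13%. With 1 library on each side there is no test of these differences. Genes far apart were mostly thinly counted, as 171 of the 205 had a mean expected count under 100, and their median count was 40.5 against 764.5 for all expressed genes. None (0) had a mean of at least 100 FPKM and 14 had at least 10. Members of the gene lists such as C8g, Saa3, Hal, Abcg5 and Fabp1 were lower in library 2 by this measure, and Ldhb and Ccl20 were higher.

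Among genes of at least 10 FPKM, H2-Q7 and Fabp1 were furthest apart in the direction of library 1. H2-Q7, a nonclassical MHC class I gene, was at 35.6 and 17.9 FPKM, 1.99-fold lower in library 2. Its relative H2-Q9 was at 18.1 and 28.8, higher in library 2, and H2-Q7 shared 39.1% of its 31-base stretches with other transcripts. Car3, a carbonic anhydrase, was at 40.2 and 22.4 FPKM from 1156 and 919 counts. Mir1892 and Snord22, short RNA genes that shared 100% of their 31-base stretches with other transcripts, were at 5.18 and 20.2 and at 11.7 and 20.8 FPKM from at most 51 counts. Scand1, a protein with a SCAN domain, was at 9.20 and 14.0.

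The spread between libraries was smaller for genes with more counts. It was measured as the robust standard deviation of the log2 ratio, and was 0.68 for 1269 genes of 10 to 30 counts, 0.21 for 2032 genes of 100 to 300 and 0.07 for 325 genes of 10000 or more. Poisson counting alone gives 0.51, 0.15 and 0.02 for these genes. Read as a fold difference between the libraries, 1 robust standard deviation was therefore 59.9% at 10 to 30 counts and 6.14% at 1000 to 3000 counts. As a description with no p, the chi-square of the counts was 3.70 per gene over 13960 genes, with a median of 1.05, so the tables are not repeats of each other within counting noise. Separate preparations of the same RNA would also exceed counting noise, so these values do not show separate cultures. The log2 ratio varied with transcript length across genes, with a Spearman correlation of 0.228, and with GC content at -0.116 over 11117 genes.

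**Figure D5:**
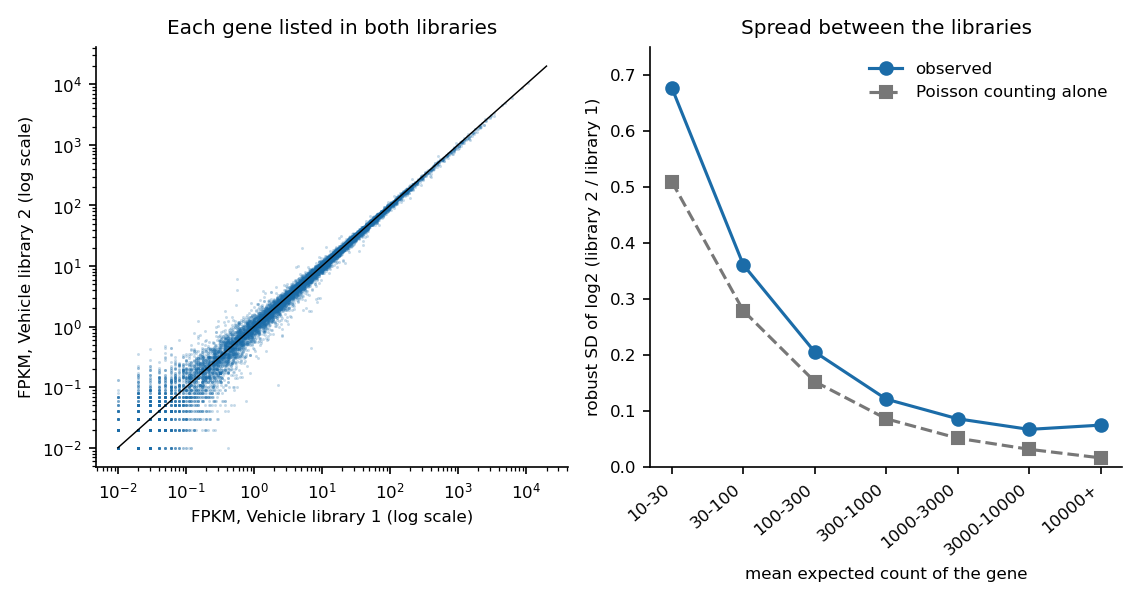
Left, FPKM in Vehicle library 2 against Vehicle library 1 for each gene listed in both (log scales), with the line of equality. Right, robust standard deviation of the log2 ratio of the libraries by mean expected count, beside the value that Poisson counting alone gives. The spread falls from 0.68 at 10 to 30 counts to 0.07 at 10000 counts or more and stays above counting in all 7 bins.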

How the data were processed

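Gene expression was described in the 2 Vehicle libraries only. The 8 libraries with fatty acids were not analysed here. For each gene, the deposited tables hold an FPKM value, an expected count and a transcript length. Submitters' processing notes name HISAT, Bowtie2 and RSEM and the mm10 build, with no versions stated. The expected counts deposited by the authors are not normalized between libraries, and 76.7% and 75.5% of them were whole numbers (within 1e-06). The FPKM deposited by the authors are per length and depth, and the lowest listed value is 0.01.

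Gene IDs were matched to RefSeq GRCm38.p6 for names, coordinates and promoter windows: 16496 matched by ID and 10 by transcript accession, while 34, holding 0.0937% of the counts, did not. Shared 31-base stretches were counted in GENCODE M21 transcripts. Python 3.11.15, numpy 2.4.6 and pandas 2.3.3 were used, and the scripts were tested on simulated data. No groups were compared and no p was computed, and a chi-square of the counts is given only as a description. Named were the 20 genes highest in FPKM and the 10 highest in count, the highest, the lowest and unlisted members of 33 lists (477 genes, of which 455 were listed and 376 expressed), the 4 defining markers, the 5 genes furthest apart each way above 10 FPKM and the 5 highest non-coding genes, while some further list members were named for their role after their values were seen. Members and lists were chosen with earlier results of these data known. Alternatives were other thresholds, units, pseudocounts (log2(FPKM + 1)) and leaving out a library. Depth sets the precision, and intervals were not computed. A few members of the lists are counted but not reported here by name.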

Additional observations from a re-analysis of the deposited data

How the results depend on the processing

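The number of expressed genes was 11197, and it was 6120 when 10 FPKM was required. It ranged from 11196 to 11218 when 1 library was left out. The 50 highest genes held 24.6% of FPKM and 17.9% of expected counts, since counts are not divided by length, and between 24.4% and 24.8% of FPKM when 1 library was left out. Genes 1.5-fold apart between the libraries numbered 205, against 14 with a mean of at least 10 FPKM, 2070 with no filter on low values and 90 on the log2(FPKM + 1) scale. Leaving out a library gives no value for that count, which needs both. Rescaling to TPM multiplied the list medians by 1.96 to 1.98, and keeping members listed in both libraries moved 4 of 31 list medians by over 1.5 times, those of the cholangiocyte, plasma carrier and fetal lists and of the lymphocyte list, which went to 0.205. No paired analysis was possible because the result comes from no test. Depth limits genes under about 100 counts. For genes of 30 to 100 counts the robust standard deviation was 28.4% as a fold difference between the libraries, and it was larger at 10 to 30 counts.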

Other observations

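Non-coding genes of the top of the table, chosen by a rule on level, were Gm12505 at 546 and 579 FPKM, Gm10052 at 209 and 198, Gm6793 at 196 and 181, Mir703 at 196 and 134 and E030024N20Rik at 164 and 172. Of these, Gm10052 shared 100% of its 31-base stretches with other transcripts, Gm6793 81.6%, E030024N20Rik 71.3%, Mir703 50.6% and Gm12505 5.50%.

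Transcripts of the Y chromosome were expressed in both libraries. Eif2s3y, a translation initiation factor subunit, was at 50.2 and 52.9 FPKM, Ddx3y, an RNA helicase, at 24.9 and 27.0, Kdm5d, a histone demethylase, at 8.46 and 8.02 and Uty, a relative of Kdm6a, at 7.25 and 7.74. Xist, the RNA that silences an X chromosome in females, was at 0.02 in each, and Tsix was not listed. The labels give no sex of the mice.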
